A study of Mus musculus with 6 samples.

Results

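The integrin subunits that leukocytes are known for were followed through the RNA-Seq data of a mouse model of acute myeloid leukemia. They were taken by gene symbol, but the choice was made with earlier results of these data known. Itgal, Itgam, Itgax and Itgb2 form the β2 integrins, and Itga4, Itgb1 and Itgb7 form the α4 integrins. Itga5 is the fibronectin-binding partner of β1, and Itgav and Itgb3 are the αV and β3 genes. The 10 genes each stood on 1 line of a table with 26082 gene names, and all 10 were measured. The table covers 6 bone marrow samples, 3 from mice given vehicle and 3 from mice given DS-5272, an inhibitor that blocks the binding of MDM2 to p53, at 80 mg/kg by mouth. All 6 samples were leukemia cells of the C57BL/6J strain that carry the MLL-AF9 fusion gene, isolated by cell sorting 24 h after the dose. Both groups share the model and its limits: c-Kit+ progenitors of wild-type bone marrow received the fusion by retrovirus together with a GFP marker, the resulting leukemia was passed through several rounds of transplantation, and the host mice kept their own immune cells. The age of the mice is not given in the sources used here.

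An integrin is a pair of 1 α and 1 β chain that spans the cell membrane, binds matrix or a counter-receptor on another cell outside, and is tied to actin inside. On circulating leukocytes most integrins rest in a bent, low-affinity form, and signals from other receptors straighten them through talin and kindlin (inside-out activation), after which the bound integrin signals back through Src family kinases and Syk (outside-in signaling). In the bone marrow, α4β1 and α5β1 hold progenitors to stroma through VCAM-1 and fibronectin, whereas the β2 integrins αLβ2 (LFA-1), αMβ2 (Mac-1, CD11b) and αXβ2 (CD11c) serve adhesion, migration and phagocytosis of mature myeloid and lymphoid cells. CD11b is the common surface marker of granulocytes and monocytes, and its level is known to rise as myeloid cells mature.

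The α genes of the β2 integrins lie together on mouse chromosome 7. In the GENCODE annotation of GRCm38, Itgal (chr7:127296260-127335138), Itgam (chr7:128062640-128118491), Itgax (chr7:128129547-128150657) and Itgad (chr7:128154376-128223816), the fourth α partner of β2, follow each other on the plus strand, with 727.5 kb between Itgal and Itgam, 11.1 kb between Itgam and Itgax and 3.7 kb between Itgax and Itgad. Itgb2 lies apart from them (chr10:77530252-77565708, plus strand), as do Itgb7 (chr15:102215995-102231944, minus strand) and Itgb1 (chr8:128685654-128733200, plus strand). The remaining genes are Itga4 (chr2:79255426-79333123, plus), Itga5 (chr15:103344286-103366763, minus), Itgav (chr2:83724397-83806916, plus) and Itgb3 (chr11:104608000-104670476, plus).

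Promoter windows of 250 bases before the RefSeq start of transcription (GRCm38.p6) were found for 7 of the 10 genes. Shown are the neighbors Itgam and Itgax, whose mRNA was higher with DS-5272, and the β partners Itgb7 and Itgb1, of which the first was higher and the other did not pass the test. Each is written 5′ to 3′ on the strand of its gene and ends at the base before the RefSeq start, and capitals mark the letters GAGGAA, a PU.1 box, or TGANTCA, an AP-1 site, read on either strand.
Itgam, chr7:128062390-128062639, plus strand: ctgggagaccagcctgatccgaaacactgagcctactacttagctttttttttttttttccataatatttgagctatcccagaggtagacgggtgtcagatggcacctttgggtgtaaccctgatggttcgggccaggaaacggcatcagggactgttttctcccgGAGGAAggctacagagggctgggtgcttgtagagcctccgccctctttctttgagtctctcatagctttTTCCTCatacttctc
Itgax, chr7:128129300-128129549, plus strand: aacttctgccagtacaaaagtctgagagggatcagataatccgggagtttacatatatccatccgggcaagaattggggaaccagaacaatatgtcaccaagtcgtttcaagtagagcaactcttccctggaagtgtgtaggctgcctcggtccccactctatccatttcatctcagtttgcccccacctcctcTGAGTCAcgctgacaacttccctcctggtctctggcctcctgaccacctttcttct
Itgb7, chr15:102231936-102232185, minus strand: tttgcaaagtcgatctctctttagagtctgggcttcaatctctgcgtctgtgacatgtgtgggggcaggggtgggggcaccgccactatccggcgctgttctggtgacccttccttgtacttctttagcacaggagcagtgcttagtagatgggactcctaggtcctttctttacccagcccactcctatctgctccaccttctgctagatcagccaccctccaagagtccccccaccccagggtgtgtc
Itgb1, chr8:128685404-128685653, plus strand: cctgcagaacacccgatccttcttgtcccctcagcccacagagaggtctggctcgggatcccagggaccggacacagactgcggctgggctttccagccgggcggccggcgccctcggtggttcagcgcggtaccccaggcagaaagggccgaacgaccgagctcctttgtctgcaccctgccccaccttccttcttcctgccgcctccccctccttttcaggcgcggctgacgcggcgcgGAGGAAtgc
PU.1 is an ETS factor of the myeloid lineage. The Itgam window held its box at −84 and, on the other strand, at −15 from the start, and the Itgb1 window held it at −9. A PU.1 box stood in 4 of the 7 windows, while 23.4% of 32544 promoters of the same length held it. The AP-1 letters stood in 1 of the 7, Itgax at −56, against 6.73% of all promoters. The Sp1 box GGGCGG was in 4 of the 7 (33.0% of all), the RUNX letters TGTGGT in 1, Itga4 (14.0% of all), and neither the C/EBP letters TTGCNNAA (9.58% of all) nor the p53 decamer (7.13% of all) was found in any of the 7. These are matches of letters in short windows. The Itgb7 window held none of the 6 motifs searched, although its gene was among those with the largest fold changes below.

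Expression was given as FPKM, the fragments of a gene per kilobase of transcript and per library size, so levels of different genes can be set side by side within a sample. The depth, estimated from the steps of low values, was 34700000 to 43000000 fragments in the vehicle samples and 23200000 to 32100000 in the DS-5272 samples. The limma fit on log2(FPKM + 1) covered the 11130 genes whose mean over the samples reached 1 FPKM, a gene passed at an adjusted p under 0.05, and fold changes on that scale understate the change of genes near 1 FPKM. With DS-5272, 24.2% of all genes tested rose and 22.0% fell, 46.3% in all. Rescaling to a common upper quartile or to a common total (TPM) lowered the median log2 fold change of all genes from 0.04 to −0.08 and −0.19, and the share of rises among the called genes from 52.4% to 41.3% and 32.5%.

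All 12 markers of leukemia and myeloid progenitors that had an entry were above 0 in every sample. Among them Ptprc, the pan-leukocyte CD45, does not tell leukemia cells from other leukocytes. It was at 66.0 to 84.5 FPKM with vehicle and 141 to 214 FPKM with DS-5272, higher in every DS-5272 sample, unlike the sum of the 12. Of these 12 markers, 4 rose and 5 fell (median log2 fold change −0.10), and their sum was 5053 to 5910.2 FPKM with vehicle and 3278 to 3553 FPKM with DS-5272. Markers of other bone marrow cells moved too. DS-5272 replicate 1 stood apart from its group: the summed level of 15 macrophage markers was 515 FPKM there against 219 and 286 in the other DS-5272 samples and 79.9 to 137 with vehicle, and 8 erythroid markers summed to 156 FPKM there against 18.8 to 41.0 in the other DS-5272 samples and 18.2 to 22.2 with vehicle. Vcam1, an integrin ligand whose values are given below, is among the 15 and held a large part of the vehicle sums. The same sample held the lowest DS-5272 values of Itgam, Itgax, Itgal, Itgb2, Itgb7 and Itgb3, and each fold change is therefore also given without it.

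Of the 10 integrin genes, 6 rose, none fell and 4 did not pass the test, beside 24.2% and 22.0% of all genes tested. With the replicate number as a block the same 6 of the 10 rose, beside 30.3% of all genes. The 4 genes of the β2 integrins (Itgam, Itgax, Itgal and Itgb2) all rose, together with Itgb7 and, by a small amount, Itga5. Itga4, Itgb1, Itgav and Itgb3 did not pass. In 5 of the 6 the log2 fold change was at least 1, a size that 8.79% of all genes reached as called rises. The counts in this paragraph include Itgax, which entered the test only through the DS-5272 samples. Itgal, among the 5, was at 0.93 after scaling to a common total. In 7 of the 10 genes, the 6 that rose and Itgb1, every DS-5272 sample was above every vehicle sample, as was so for 32.1% of all genes tested, while 61.8% did not overlap in either direction. The median log2 fold change of the 10 was 0.81, against 0.04 over all genes. These are bulk samples, in which fewer cells of a type and less RNA per cell cannot be told apart.

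**Figure D1:**
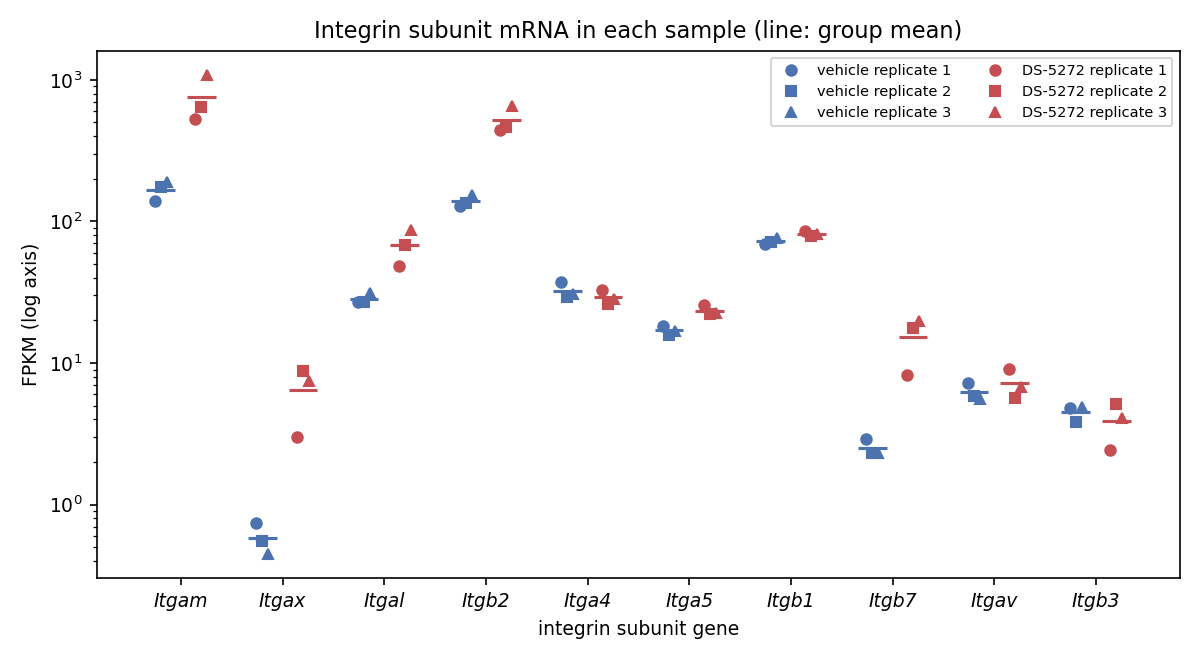
FPKM (log axis) of the 10 integrin genes in each of the 6 samples, vehicle in blue and DS-5272 in red, with the replicate number as the symbol and a line at the group mean. Itgam, Itgax, Itgal, Itgb2 and Itgb7 stand well above the vehicle samples in all 3 DS-5272 samples, from 48.1 FPKM for Itgal in DS-5272 replicate 1 against at most 31.4 with vehicle, whereas the points of Itga4, Itgav and Itgb3 overlap.

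Itgb2 encodes β2 (CD18), the chain that every β2 integrin needs to reach the cell surface. Its level was 129, 134 and 153 FPKM in vehicle replicates 1 to 3 and 442, 461 and 652 FPKM in DS-5272 replicates 1 to 3. All DS-5272 samples were far above all vehicle samples, and replicate 3 was the highest of either group. The means were 139 ± 12.2 and 518 ± 116 FPKM (SD, n = 3), a 3.74-fold difference, with a log2 fold change of 1.88 (SE 0.17, 95% interval 1.46 to 2.29, limma adjusted p = 0.0012). Without DS-5272 replicate 1 it was 1.98.

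Itgam, which encodes αM (CD11b), the chain that binds ICAM-1, fibrinogen and the complement fragment iC3b, was the most abundant of the 10 genes. It was measured at 139.7, 175 and 190.4 FPKM with vehicle and at 530.2, 646 and 1087 FPKM with DS-5272. The lowest DS-5272 sample was well above the highest vehicle sample, and the DS-5272 samples differed among themselves more than the vehicle samples did. The mean rose from 168 ± 26.0 to 754 ± 294 FPKM (SD, n = 3), 4.48-fold, with a log2 fold change of 2.10 (SE 0.28, 95% interval 1.44 to 2.76, limma adjusted p = 0.0031) and 2.32 without DS-5272 replicate 1. In the GENCODE annotation an exon of Itgam overlaps the predicted gene Gm49368 on the same strand. No entry under that name was among the measured genes, so whether it affected the fragments given to Itgam is not known.

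Itgal encodes αL (CD11a), which as LFA-1 binds the ICAMs and is found on nearly all leukocytes. Its values were 26.9, 27.0 and 31.4 FPKM with vehicle and 48.1, 68.6 and 86.8 FPKM with DS-5272. The vehicle samples lay close together and below every DS-5272 sample. From 28.4 ± 2.59 to 67.8 ± 19.4 FPKM (SD, n = 3) it rose 2.38-fold, with a log2 fold change of 1.19 (SE 0.21, 95% interval 0.69 to 1.69, limma adjusted p = 0.0065), the smallest among the 4 β2 integrin genes, and 1.41 without DS-5272 replicate 1.

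Itgax encodes αX (CD11c), abundant on dendritic cells and some macrophages. It was the lowest of the 10 genes with vehicle, at 0.744, 0.554 and 0.449 FPKM, and reached 3.02, 8.74 and 7.43 FPKM with DS-5272. These are about 129, 78 and 69 fragments against 392, 991 and 697 at the estimated depth. No vehicle sample reached 1 FPKM, so Itgax entered the test only through the DS-5272 samples. The means were 0.582 ± 0.149 and 6.40 ± 2.99 FPKM (SD, n = 3), an 11-fold ratio, while the log2 fold change on the FPKM + 1 scale was 2.13 (SE 0.33, 95% interval 1.35 to 2.91, limma adjusted p = 0.0045) and 2.52 without DS-5272 replicate 1. With a pseudocount of 0.1 FPKM in place of 1 it was 3.14.

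The transcripts of Itgax and its neighbor Itgad are near copies in places. They share 384 windows of 50 nt, of 4324 in Itgax, and 146 windows of 100 nt, the only such pair among 91 pairs of integrin genes examined, so the share of fragments given to each is uncertain. Itgad was measured at 0.298, 0.0652 and 0.410 FPKM with vehicle and 4.53, 0.116 and 0.488 FPKM with DS-5272, with replicate 1 alone high, and did not reach the mean needed for the test. The sum of both genes was 1.04, 0.619 and 0.859 FPKM with vehicle and 7.55, 8.85 and 7.92 FPKM with DS-5272. In this sum the DS-5272 samples lay closer together than in Itgax alone, with replicate 1 still the lowest, and the ratio of the means was 9.65 (0.840 ± 0.212 against 8.11 ± 0.669 FPKM, SD, n = 3).

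Dendritic cells, macrophages and NK cells also use β2 integrins, and their markers were read beside these genes. Of 12 dendritic cell markers with an entry, 7 stayed under 1 FPKM in every sample, the defining factor gene Zbtb46 at 0 to 0.0322 FPKM among them, and the summed level was 111 to 156 FPKM with vehicle and 138 to 234 FPKM with DS-5272. Of the 4 dendritic cell markers tested, 1 rose and 2 fell, with a median log2 fold change of −0.33. The NK cell markers were near 0: 10 of 11 stayed under 1 FPKM in every sample, with sums of 0.678 to 1.63 and 2.64 to 4.58 FPKM. The 11 T cell markers summed to 3.0 to 3.46 and 3.77 to 5.88 FPKM, and the 10 B cell markers to 5.79 to 8.11 and 5.27 to 7.36 FPKM. The 14 markers of stroma and endothelium, of which 11 stayed under 1 FPKM in every sample, summed to 40.8 to 69.0 and 92.5 to 125 FPKM. Among the macrophage markers C1qb, a complement chain, rose from 1.53 to 2.95 FPKM with vehicle to 14.1 to 58.2 FPKM with DS-5272 (log2 fold change 2.99, SE 0.52, limma adjusted p = 0.006), and 5 of the 13 macrophage markers tested rose and none fell. Marco, a macrophage scavenger receptor, was at 0 in the vehicle samples and 2.79, 0.0543 and 0.110 FPKM in the DS-5272 samples. The part of other cell types in the integrin levels was not tested.

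Itgb7 encodes β7, which pairs with α4 to bind the mucosal addressin MAdCAM-1. It was low with vehicle, at 2.90, 2.33 and 2.33 FPKM, and 8.25, 17.6 and 19.7 FPKM with DS-5272. Every DS-5272 sample was above the vehicle samples, with replicate 1 well below the other two. The mean rose 6.02-fold, from 2.52 ± 0.329 to 15.2 ± 6.10 FPKM (SD, n = 3), with a log2 fold change of 2.12 (SE 0.30, 95% interval 1.40 to 2.84, limma adjusted p = 0.0037) and 2.48 without DS-5272 replicate 1.

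The mRNA of its partner α4 did not move with it. Itga4, the α4 chain (CD49d) that binds VCAM-1 and fibronectin, was measured at 37.5, 29.4 and 30.7 FPKM with vehicle and 32.9, 26.1 and 28.3 FPKM with DS-5272. The groups overlapped, and replicate 1 was the highest of both. The means were 32.5 ± 4.34 and 29.1 ± 3.45 FPKM (SD, n = 3), with a log2 fold change of −0.15 (SE 0.13, 95% interval −0.48 to 0.17, limma adjusted p = 0.373). An exon of Itga4 overlaps Cerkl on the other strand, a gene that was at 1.30 to 3.08 FPKM in the 6 samples, and whether fragments were counted by strand is not given in the sources used here.

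Itgb1 encodes β1 (CD29), the partner of α4, α5 and many other chains. Its level was 69.2, 71.4 and 76.2 FPKM with vehicle and 85.3, 78.9 and 81.0 FPKM with DS-5272. The DS-5272 samples were all higher, but by little. The means of 72.3 ± 3.57 and 81.7 ± 3.27 FPKM (SD, n = 3) gave a log2 fold change of 0.18 (SE 0.09, 95% interval −0.04 to 0.39, limma adjusted p = 0.153), which turned to −0.09 after scaling to a common total and to −0.03 after quantile normalization, neither past the threshold. The 95% intervals of Itgb1 and Itga4 end below the log2 fold changes of Itgb2 and Itgb7.

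Itga5 encodes α5 (CD49e), the fibronectin receptor chain. It was 18.3, 15.7 and 16.9 FPKM with vehicle and 25.7, 22.2 and 22.4 FPKM with DS-5272, without overlap. From 17.0 ± 1.31 to 23.4 ± 1.95 FPKM (SD, n = 3) it rose 1.38-fold, with a log2 fold change of 0.44 (SE 0.11, 95% interval 0.19 to 0.69, limma adjusted p = 0.016). This was the call that held least well. It was lost after scaling to a common upper quartile (0.31, adjusted p = 0.103) or a common total (0.19, adjusted p = 0.418), and without vehicle replicate 2 (0.39, adjusted p = 0.072) or vehicle replicate 3 (0.44, adjusted p = 0.062).

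The αV and β3 chains together form the vitronectin receptor, and β3 also pairs with αIIb on platelets. Itgav was 7.28, 5.81 and 5.57 FPKM with vehicle and 9.04, 5.70 and 6.77 FPKM with DS-5272, and replicate 1 was the highest of both groups. Its log2 fold change was 0.17 (SE 0.18, 95% interval −0.26 to 0.59, limma adjusted p = 0.467), and −0.06 after scaling to a common total. An exon of Itgav overlaps the predicted gene Gm13684 on the other strand. Itgb3 was 4.85, 3.83 and 4.92 FPKM with vehicle and 2.44, 5.10 and 4.12 FPKM with DS-5272, so that DS-5272 samples were both the lowest and the highest. Its log2 fold change was −0.21 (SE 0.22, 95% interval −0.74 to 0.32, limma adjusted p = 0.461), and 0.02 without DS-5272 replicate 1. The 12 megakaryocyte and platelet markers summed to 3.19 to 3.91 FPKM with vehicle and 7.02 to 15.3 FPKM with DS-5272, 5 of them staying under 1 FPKM in every sample.

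**Figure D2:**
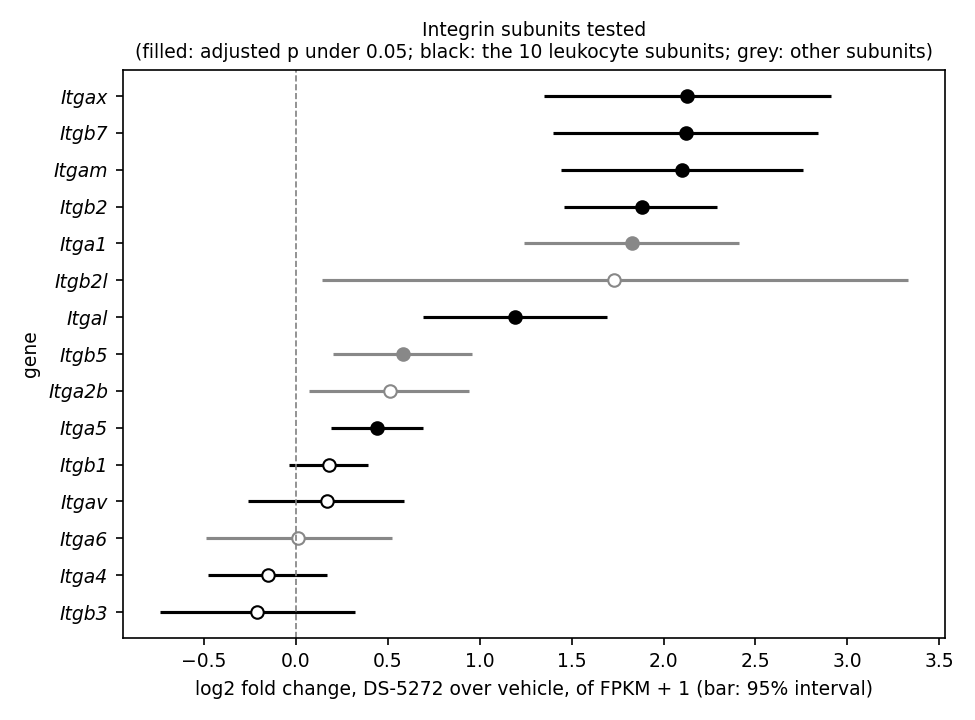
Log2 fold change of FPKM + 1, DS-5272 over vehicle, for each integrin subunit tested, with the 95% interval of the limma fit. The 10 leukocyte subunits are black, other subunits gray, and filled points passed the test. Itgax, Itgb7, Itgam, Itgb2 and Itgal lie between 1.19 and 2.13 with intervals above 0, Itga5 lies at 0.44, and the intervals of Itgb1, Itgav, Itga4 and Itgb3 cross 0.

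The order of the levels (FPKM, per length) was led by the Mac-1 chains in both groups. With vehicle the means fell from Itgam (168) over Itgb2 (139), Itgb1 (72.3), Itga4 (32.5), Itgal (28.4), Itga5 (17.0), Itgav (6.22), Itgb3 (4.53) and Itgb7 (2.52) to Itgax (0.582), and the neighbors that overlapped were Itgam with Itgb2 and Itga4 with Itgal. With DS-5272 the order was Itgam (754), Itgb2 (518), Itgb1 (81.7), Itgal (67.8), Itga4 (29.1), Itga5 (23.4), Itgb7 (15.2), Itgav (7.17), Itgax (6.40) and Itgb3 (3.89). Here Itgam overlapped Itgb2, Itgb1 overlapped Itgal, and the last 4 genes overlapped from neighbor to neighbor. Among all genes tested, the vehicle mean of Itgam was above 96.3% and its DS-5272 mean above 98.9%. Itgal moved from above 70.8% to above 86.4%, Itgb7 from above 12.5% to above 51.4%, and Itgax from above 1.05% to above 29.1%. The genes tested were kept by their mean over all samples. A gene that passed only through the DS-5272 samples, as Itgax did, therefore ranks near the bottom with vehicle by that filter.

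Ratios of subunits within a sample, which do not move with the scaling of that sample, were compared for 10 pairs. With 3 samples against 3 the exact permutation test cannot go below p = 0.1, and 8 of the 10 ratios reached that limit (two-sided, adjusted p = 0.125 over the 10), so no ratio could pass the threshold. The pairs share genes and are not independent, and the share among other gene pairs was not computed. Of single genes tested, 61.8% did not overlap in either direction. The Itgam to Itgb2 ratio, the α and β chain of Mac-1, was 1.08, 1.31 and 1.25 with vehicle and 1.20, 1.40 and 1.67 with DS-5272. The groups overlapped, and the log2 difference was 0.22 (exact permutation p = 0.3, adjusted p = 0.333). The Itgal to Itgb2 ratio was 0.208, 0.201 and 0.206 with vehicle and 0.109, 0.149 and 0.133 with DS-5272. It was nearly the same in the vehicle samples and lower in every DS-5272 sample, by 0.67 on the log2 scale on average.

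The Itgam to Itgal ratio was 5.19, 6.49 and 6.06 with vehicle and 11, 9.41 and 12.5 with DS-5272 (log2 difference 0.89), and the Itgax to Itgal ratio was 0.0143 to 0.0276 and 0.0628 to 0.127 (log2 difference 2.13). The Itgam to Itgax ratio was lower in every DS-5272 sample, at 73.9 to 175 against 188 to 424 with vehicle (log2 difference −1.24). These Itgax ratios, which use FPKM without a pseudocount, rest on the low vehicle values of Itgax. With a pseudocount of 1 FPKM the log2 differences were 0.94 for Itgax to Itgal and −0.03 for Itgam to Itgax (exact permutation p = 0.8), and with 0.1 FPKM they were 1.93 and −1.03 (p = 0.2 for the latter, exact permutation). The share of Itgal in the summed FPKM of the 4 α partners of β2 (Itgal, Itgam, Itgax and Itgad) was 16.1%, 13.3% and 14.1% with vehicle and 8.21%, 9.49% and 7.34% with DS-5272, without overlap. Itgam made up 83.3% to 86.4% and 89.3% to 92.0% of that sum, and Itgax 0.202% to 0.444% and 0.516% to 1.21%. Thus Itgam was the main α partner of β2 mRNA in every sample of both groups. The α sum over Itgb2 was 1.29 to 1.51 with vehicle and 1.33 to 1.81 with DS-5272, and the groups overlapped.

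Among the β chains, the Itgb2 to Itgb1 ratio was 1.87, 1.88 and 2.0 with vehicle and 5.18, 5.84 and 8.05 with DS-5272 (log2 difference 1.70), with no overlap. Of the summed FPKM of 6 β genes, Itgb2 made up 46.9% to 52.4% with vehicle and 69.3% to 75.9% with DS-5272, while Itgb1 made up 25.1% to 27.0% and 9.43% to 13.4%. The sum itself was 265 to 291 FPKM with vehicle and 637 to 858 FPKM with DS-5272. The Itgb7 to Itgb1 ratio, the β partners that compete for α4, was 0.0419, 0.0326 and 0.0306 with vehicle and 0.0968, 0.223 and 0.244 with DS-5272 (log2 difference 2.32). β1 mRNA was still the more abundant of these partners in every sample.

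For the fibronectin receptor chains, the Itga5 to Itga4 ratio was 0.489, 0.534 and 0.552 with vehicle and 0.781, 0.848 and 0.794 with DS-5272 (log2 difference 0.62), again without overlap. The Itgav to Itga4 ratio was 0.182 to 0.198 and 0.218 to 0.275 (log2 difference 0.35). The Itgb3 to Itgav ratio was 0.666, 0.659 and 0.883 with vehicle and 0.270, 0.895 and 0.609 with DS-5272, with overlap and no common direction (exact permutation p = 0.5).

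**Figure D3:**
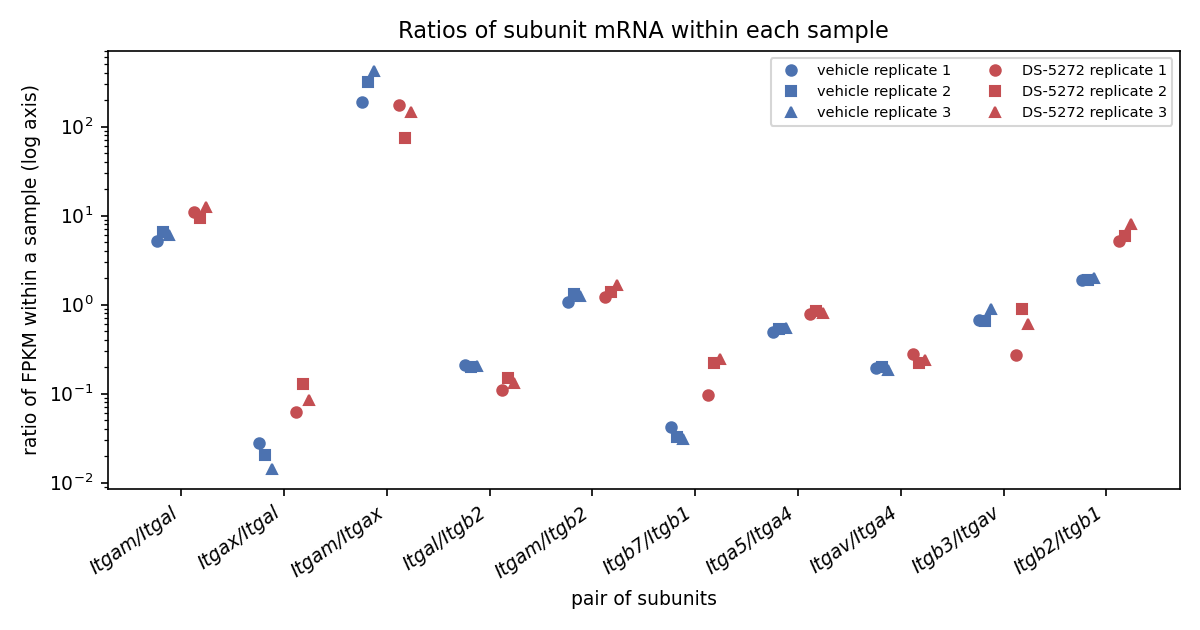
Ratio of FPKM of pairs of subunits within each sample (log axis), vehicle in blue and DS-5272 in red, with the replicate number as the symbol. The groups stand apart in 8 of the 10 pairs and overlap for Itgam/Itgb2 and Itgb3/Itgav. The pairs share genes, and of single genes tested 61.8% did not overlap in either direction.

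Of 17 other integrin subunits, 5 were abundant enough for the test, and 2 of these rose. Itga1, the collagen-binding α1 chain, was 4.87, 4.58 and 3.02 FPKM with vehicle and 24.3, 15 and 13.5 FPKM with DS-5272, where replicate 1 was the highest (log2 fold change 1.83, SE 0.25, limma adjusted p = 0.0033). Itgb5, an αV partner, was 69.6, 52.0 and 52.8 FPKM with vehicle and 98.2, 74.1 and 89.1 FPKM with DS-5272 (log2 fold change 0.58, SE 0.16, limma adjusted p = 0.025). Its call was lost under 3 of the scalings (common upper quartile, 0.44 and adjusted p = 0.087; common total, 0.32 and 0.270; quantile normalization, 0.36 and 0.165) and, with adjusted p from 0.056 to 0.093, without any 1 library except vehicle replicate 1 or DS-5272 replicate 2. Itgb2l, a β2-like gene of granulocytes, was 0.184, 1.36 and 2.18 FPKM with vehicle and 1.48, 8.70 and 12.5 FPKM with DS-5272, with overlap (log2 fold change 1.73, SE 0.67, limma adjusted p = 0.072). With the replicate number as a block its adjusted p was 0.0029, and its log2 fold change with DS-5272 replicate 1 left out was 2.47 (adjusted p = 0.0098). Itga2b, the αIIb chain, was 0.579 to 0.994 FPKM and 1.24 to 2.12 FPKM (limma adjusted p = 0.059, and 0.025 with the block), and it too entered the test only through the DS-5272 samples. Itga6, a laminin receptor chain, was 9.96 to 15 and 9.42 to 15.3 FPKM (log2 fold change 0.01, limma adjusted p = 0.962, and −0.11 and −0.23 with a common upper quartile and a common total, neither past the threshold). Itgb6 was listed at 0 in every sample.

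The genes around the integrins were read in 8 lists by role, described by counts and medians beside the 24.2% of all genes that rose and their median of 0.04. Of 22 ligands, 11 were tested, and 5 rose and 1 fell (median log2 fold change 0.91). F11r, the junctional adhesion molecule JAM-A that binds αLβ2, was 0.504 to 0.575 FPKM with vehicle and 3.36 to 4.22 FPKM with DS-5272 (log2 fold change 1.59, SE 0.13, limma adjusted p = 8.9e-04). F11r and the osteopontin gene Spp1, also counted among the rises, had vehicle means under 1 FPKM and entered the test only through the DS-5272 samples. Icam2, another LFA-1 ligand, fell from 32.4 to 37.7 FPKM to 15.1 to 24.1 FPKM (−0.90, SE 0.17, limma adjusted p = 0.008). Icam1, the main ligand of αLβ2 and αMβ2, was 13.6, 18.7 and 21.7 FPKM with vehicle and 29.1, 48.8 and 73.4 FPKM with DS-5272 (1.37, SE 0.33, limma adjusted p = 0.017), and its adjusted p was 0.054 without vehicle replicate 1 and 0.05 without vehicle replicate 2.

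The matrix proteins Thbs1, thrombospondin-1, and Fn1, fibronectin, had wide spreads. Thbs1 was 0.376, 4.33 and 3.30 FPKM with vehicle and 4.92, 30.1 and 78.0 FPKM with DS-5272 (log2 fold change 2.95, SE 0.97, limma adjusted p = 0.044). Fn1 was 0.891, 2.87 and 2.42 FPKM and 3.66, 20.2 and 25.2 FPKM (2.23, SE 0.66, limma adjusted p = 0.031). Both calls were lost without any 1 library other than DS-5272 replicate 1, with adjusted p from 0.071 to 0.123 for Thbs1 and from 0.063 to 0.093 for Fn1. Vcam1, the ligand of α4β1, was 36.6, 64.1 and 82.8 FPKM with vehicle and 143, 74.8 and 85.7 FPKM with DS-5272, with overlap and the highest value in DS-5272 replicate 1 (limma adjusted p = 0.125). Madcam1, the ligand of α4β7, was listed at 0 in every sample.

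Of 18 genes of inside-out activation, 14 were tested, and 9 rose and none fell (median 0.62). Tln1, talin, whose head domain binds the β tail, was 143, 119.7 and 138 FPKM with vehicle and 220.3, 223 and 278 FPKM with DS-5272 (log2 fold change 0.84, SE 0.14, limma adjusted p = 0.0051). Fermt3, the kindlin of blood cells, was 171, 182 and 189 FPKM and 251, 289 and 355 FPKM (0.71, SE 0.15, limma adjusted p = 0.01). The largest rises of the list were in Fyb (1.81, SE 0.21, limma adjusted p = 0.0023), the adaptor ADAP, Rap1b (0.95, SE 0.18, adjusted p = 0.0072), the GTPase that recruits talin, and the kinase gene Prkcd (0.86, SE 0.14, adjusted p = 0.0054).

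The genes that hold integrins inactive rose in like numbers. Of 15, all were tested, and 11 rose and none fell (median 0.78). Dok2, an adaptor that competes with talin for the β tail, was 5.14 to 6.17 FPKM with vehicle and 17.7 to 27.7 FPKM with DS-5272 (log2 fold change 1.78, SE 0.17, limma adjusted p = 0.0013). Rap1gap2, which switches Rap1 off, rose by 1.55 (SE 0.24, limma adjusted p = 0.0044) and Ptpn6, the phosphatase SHP-1, by 1.11 (SE 0.16, limma adjusted p = 0.004).

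Downstream, 40 genes of outside-in signaling had 31 tested, of which 18 rose and none fell (median 0.61). Fgr, a Src family kinase of myeloid cells, was 8.86, 17.3 and 21.6 FPKM with vehicle and 75.2, 132 and 176 FPKM with DS-5272 (log2 fold change 2.93, SE 0.40, limma adjusted p = 0.0033). Its groups stood far apart. Lcp1, the actin bundler L-plastin, was 249.7 to 268 FPKM and 727 to 993 FPKM (1.69, SE 0.14, limma adjusted p = 9.9e-04).

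The links to actin moved in both directions. Of 16 genes, 15 were tested, and 9 rose and 3 fell (median 0.84). Actn1, an α-actinin, was 2.16 to 2.88 FPKM with vehicle and 9.02 to 13.3 FPKM with DS-5272 (log2 fold change 1.67, SE 0.18, limma adjusted p = 0.0017), whereas the more abundant Actn4 was 90.5 to 110.0 FPKM and 67.3 to 88.3 FPKM (−0.41, SE 0.14, limma adjusted p = 0.047). The Actn4 call was lost without any 1 library except DS-5272 replicate 2 (adjusted p from 0.051 to 0.154). Evl, of the Ena/VASP family, and the focal adhesion gene Zyx rose by 1.35 (SE 0.19, limma adjusted p = 0.0038) and 1.22 (SE 0.17, adjusted p = 0.0034). The LIM-domain genes Pdlim1 and Csrp1 fell by 1.70 (SE 0.23, limma adjusted p = 0.0033) and 0.59 (SE 0.12, adjusted p = 0.0084) on the log2 scale.

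Of 18 membrane partners that integrins associate with in the same cell, 17 were tested, and 11 rose and none fell (median 1.05). Lgals3, galectin-3, was 19.5, 49.0 and 38.4 FPKM with vehicle and 173, 268 and 388 FPKM with DS-5272 (log2 fold change 2.94, SE 0.40, limma adjusted p = 0.0034). Plaur, the urokinase receptor that associates with Mac-1, was 36.0, 73.8 and 81.5 FPKM and 124, 212 and 269 FPKM (1.66, SE 0.39, limma adjusted p = 0.014). Cd14, the lipopolysaccharide co-receptor, was 19.2, 79.3 and 95.6 FPKM and 192, 333 and 573 FPKM (2.63, SE 0.66, limma adjusted p = 0.018, and 0.053 without DS-5272 replicate 3). In all 3 genes vehicle replicate 1 was the lowest sample and DS-5272 replicate 3 the highest.

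Myeloid maturation genes, in whose company CD11b and CD18 are known to appear, had the largest median of the lists. All 22 were tested, 17 rose and none fell, and the median was 2.57. Among them Ly6g, the neutrophil antigen, entered the test only through the DS-5272 samples. Fpr1, the formyl peptide receptor, was 2.20, 2.42 and 2.25 FPKM with vehicle and 39.9, 40.4 and 68.3 FPKM with DS-5272 (log2 fold change 3.90, SE 0.21, limma adjusted p = 6.0e-04). Mmp9, the gelatinase of neutrophil granules, was 9.93, 41.0 and 41.2 FPKM and 236, 597 and 1097 FPKM (4.32, SE 0.71, limma adjusted p = 0.0052). S100a9, a chain of calprotectin, was 34.9, 325 and 487 FPKM and 1109, 3892 and 6366 FPKM (4.08, SE 1.07, limma adjusted p = 0.021, and 0.061 and 0.066 without DS-5272 replicates 2 and 3). The progenitor gene Kit, the sort marker of the cells that were first transduced, was 45.0, 32.3 and 30.5 FPKM with vehicle and 12.1, 9.70 and 4.94 FPKM with DS-5272 (−1.96, SE 0.30, limma adjusted p = 0.0046). Kit belongs to the 12 leukemia and progenitor markers above, which had no common direction (4 rose and 5 fell, median −0.10). By sample, the summed maturation list was 2380.2, 4056 and 4873 FPKM with vehicle and 12725, 21041 and 31724 FPKM with DS-5272, the same order of samples as in Itgam. The FPKM total over all genes also grew from replicate 1 to replicate 3 within each group. It was 445316, 492100 and 501241 with vehicle and 499229, 579884 and 661184 with DS-5272.

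**Figure D4:**
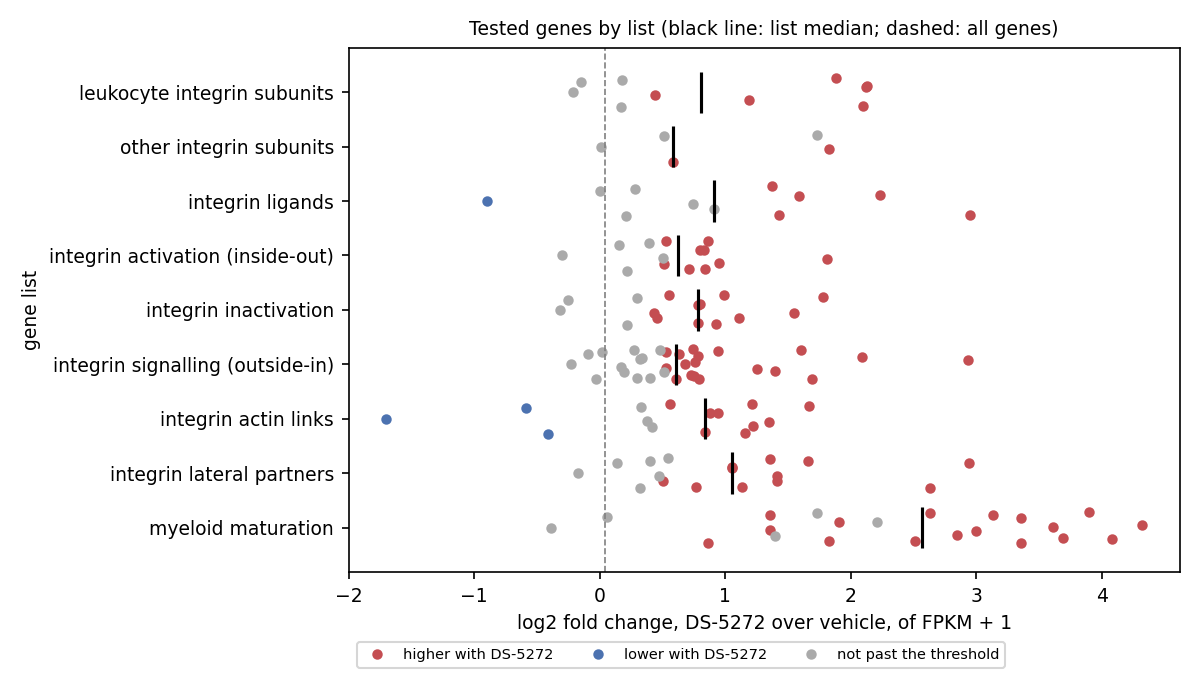
Log2 fold change of FPKM + 1, DS-5272 over vehicle, for every tested gene of the integrin subunits and the 8 lists, each point 1 gene, with red for rises, blue for falls and gray for genes that did not pass the test. List medians (black lines) run from 0.58 for the other integrin subunits to 2.57 for myeloid maturation, beside 0.04 for all genes (dashed line).

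Without DS-5272 replicate 1, the 8 lists together held 89 rises and 4 falls, against 82 rises and 4 falls of 129 genes tested with all samples, and 63 rises and 3 falls without vehicle replicate 2. Over all genes, 2920 of 11083 tested rose in the first of these fits. With all samples 2697 of 11130 rose, and without vehicle replicate 2 it was 1654 of 11148. The rises in the lists thus moved in the same direction as those over all genes. With DS-5272 replicate 1 left out, 12 of 14 tested genes of inactivation and 22 of 31 of signaling rose. Of 22 tested maturation genes, 18 rose and 1 fell.

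The genes whose level over the 6 samples ran most like each integrin gene were sought among 8561 genes of at least 5 FPKM, by the distance of their log2 values after each gene's mean was subtracted. The values are descriptions over 6 samples in 2 groups. Nearest to Itgam were Trp53inp2 (0.14 log2 units), a gene of autophagy, and Emr1 (0.26), the macrophage antigen F4/80. Nearest to Itgb2 was Cdk2ap2 (0.17), and nearest to Itgal were Jup and Il16 (0.15 each). Rgs3, a regulator of G protein signaling, was the nearest gene of both Itgax (0.43) and Itgb7 (0.41). For the genes that did not pass, Ube3a lay 0.08 from Itga4, Slc35b1 0.06 from Itgb1, Tet3 0.12 from Itgav and Smtn 0.23 from Itgb3, and Ap2b1 lay 0.10 from Itga5.

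**Figure D5:**
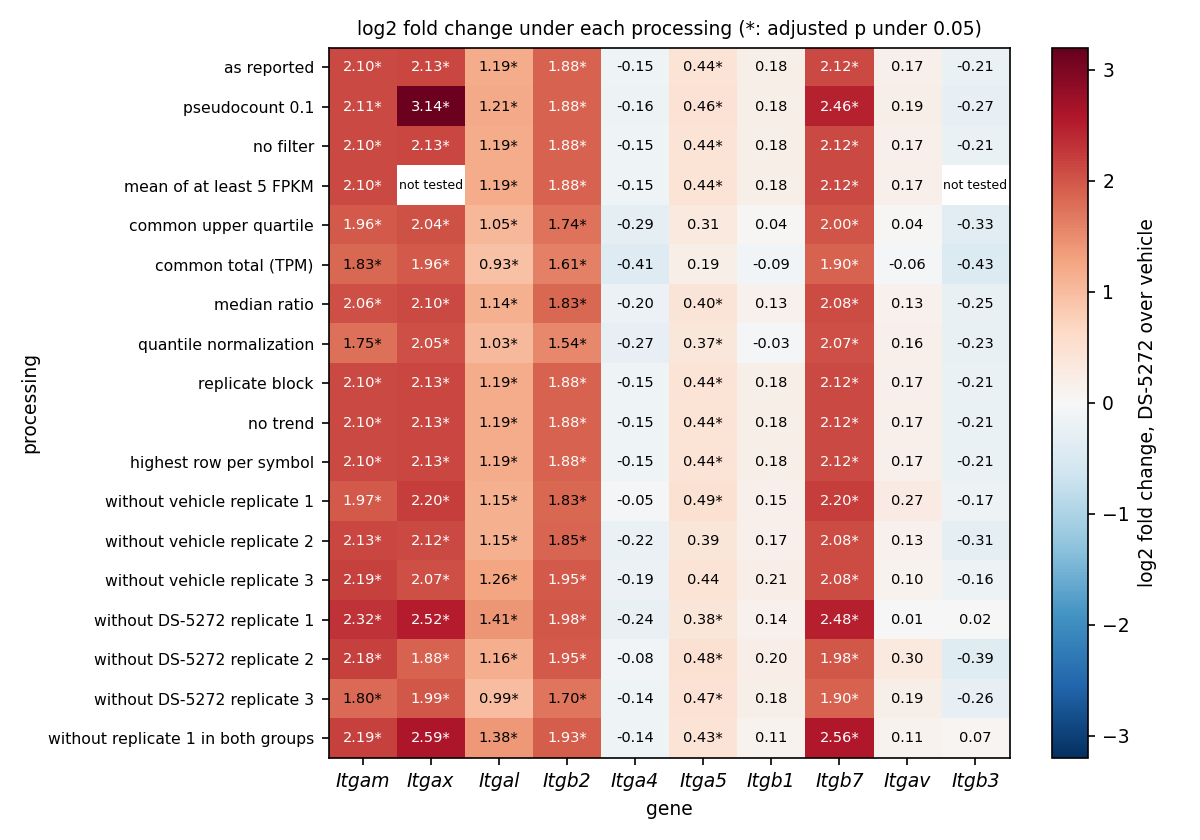
Log2 fold change, DS-5272 over vehicle, of each integrin gene (columns) under each way of processing (rows), as color and number, with an asterisk at an adjusted p under 0.05. Itgam, Itgax, Itgal, Itgb2 and Itgb7 keep fold changes between 0.93 and 3.14 in every row where they were tested, whereas Itgb1, Itgav and Itgb3 change sign in some rows. Itgax and Itgb3 were not tested with a mean of at least 5 FPKM.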

How the data were processed

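RNA was measured in 6 samples of sorted MLL-AF9 leukemia cells, 3 per group by the treatment label. Per the paper's methods and the submitters' processing notes, the authors made strand-specific paired-end libraries, trimmed reads with cutadapt 1.8.1 and aligned them to GRCm38 with TopHat2 2.1.1, and deposited FPKM values per gene from Cufflinks 2.2.1. No counts are given and whether counting used strand is not given in the sources used here. The integrin genes and the lists were chosen with earlier results of these data known.

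FPKM of entries sharing a name were summed. The groups were compared in R 4.3.3 with limma 3.58.1 (moderated statistics with a variance trend, two-sided, tested on simulated data) on log2(FPKM + 1) for genes whose mean reached 1 FPKM, adjusted after Benjamini-Hochberg over all of these. Ratios were compared by exact permutation (scipy 1.17.1). The labels do not say that replicates are separate mice, so p-values measure only the spread between these samples, which may be technical. Same-numbered samples deviated together (r = 0.658, 0.209 and 0.43, each above 0.1). The replicate block, given as an alternative, treats them as pairs. Vehicle replicate 2 was nearer to DS-5272 replicate 3 (r = 0.335), and vehicle replicate 3 also went with DS-5272 replicate 2 (r = 0.185). All other r were negative. Unless the block is named, results are from the fit without it, and the ratios were compared unpaired. Their SE and p-values therefore ignore any pairing. For Itgam the SE was 0.28 without the block and 0.14 with it. Depth was estimated from genes under 0.15 FPKM, and no counting intervals were derived from it.

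Named were each integrin gene, the 3 largest rises and falls past the threshold per list, and the 2 genes most like each integrin gene, of which the text gives part. A gene that this rule selects is not reported here. Icam1, Vcam1, Madcam1, Tln1, Fermt3, Kit, Ptprc, C1qb, Marco, Zbtb46, Spp1, Ly6g, Itgb2l, Itga2b, Itga6, Itgad and Itgb6 were chosen after their values were seen. Of the list symbols, 2 were matched under older symbols and 7, in joined entries or without an entry, were left out. Itgb2l stands in 2 lists. Alternatives were another pseudocount and filter, 4 scalings, no trend, the highest entry per name, the replicate block and each library left out.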

Additional observations from a re-analysis of the deposited data

How the results depend on the processing

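Over 168 refits of the 10 integrin genes, 159 kept direction and side of the threshold, 4 lost the call (Itga5, above) and 5 turned. The turned values were Itgb1 at −0.09 (common total) and −0.03 (quantile normalization), Itgav at −0.06 (common total), and Itgb3 at 0.02 without DS-5272 replicate 1 (−0.39 to 0.02 with any 1 library left out) and 0.07 without replicate 1 in both groups, a fit chosen after seeing the data. The cause was not tested. The called fold changes ranged over all fits from 1.75 to 2.32 for Itgam, 1.88 to 3.14 for Itgax, 0.93 to 1.41 for Itgal, 1.54 to 1.98 for Itgb2 and 1.90 to 2.56 for Itgb7, and their adjusted p stayed at or under 0.031. With a mean of at least 5 FPKM, Itgax and Itgb3 were not tested.

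With 1 library left out, 5 to 6 of the 10 integrin genes rose and none fell. Over all genes, 1654 to 2920 rose and 1404 to 2446 fell (2697 and 2451 with all samples), the lowest without vehicle replicate 2. Without vehicle replicate 3, 1489 fell. Scaling to a common total gave 1713 rises and 3555 falls, and to a common upper quartile 2233 and 3179. In the 8 lists, falls numbered 9 with a common total and 8 with quantile normalization, against 4. The replicate block changed no call among the 10 integrin genes and raised the other subunits called from 2 to 4 (Itgb2l and Itga2b added). Itga2b, which entered the test only through the DS-5272 samples, was also called without the variance trend (adjusted p = 0.043). The log2 difference of Itgb3 to Itgav ran from −0.84 to 0.02 with 1 library left out. With no filter on low values the calls of Thbs1, Fn1 and Actn4 were lost (adjusted p = 0.085, 0.065 and 0.066), and without the variance trend that of Actn4 (0.053). Depth limits mainly Itgax with vehicle, at 69 to 129 estimated fragments.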
